A study of Mus musculus with 2 samples.

Results

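Ccl3, Ccl4, Ccl5, Xcl1 and Ccr1, 4 chemokines and 1 chemokine receptor, were followed across the leukocytes of mouse melanomas, as 5 of the 27998 genes in the count matrices. The 5 genes were taken by symbol, and all of them were found in both matrices. Single-cell RNA was counted with 3′ droplet chemistry in CD45+ cells, the surface mark of leukocytes, sorted from B16 tumours, a transplanted melanoma line, on day 14 after inoculation. The hosts were female C57BL/6 mice 5 weeks of age. Each genotype gave 1 library. Control cells were from Foxp3Cre-YFP mice, which carry Cre recombinase and a yellow fluorescent protein under the Foxp3 gene of regulatory T cells. The Nrp1L/L library came from Nrp1L/LFoxp3Cre-YFP mice, which carry the same Cre and a floxed Nrp1, so that only Foxp3-expressing cells should lose the gene. The labels name 1 sample for each genotype and do not tell how many animals or tumours went into it. Without replicates, an effect of genotype cannot be told apart from one of the animals, tumours or libraries, no difference has a test, and all 95% intervals cover counting error only. Pairs of values give the control first and the Nrp1L/L library second.

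Chemokines are small secreted proteins that draw leukocytes along a gradient by acting on G protein-coupled receptors. CCL3 and CCL5 act on the receptor CCR1, which myeloid cells carry. CCL3, CCL4 and CCL5 are made by activated CD8 T cells and natural killer (NK) cells, and CCL3 and CCL4 also by macrophages, monocytes and basophils. XCL1, or lymphotactin, is made by CD8 T and NK cells and acts on XCR1, the receptor of cross-presenting dendritic cells.

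On mouse build GRCm38, the build mm10 names, Ccl5 (ENSMUSG00000035042) lay on the minus strand of chromosome 11 at 83525778 to 83530518. Ccl3 (ENSMUSG00000000982) lay on the minus strand of the same chromosome at 83647844 to 83649355. Ccl4 (ENSMUSG00000018930) lay on its plus strand at 83662584 to 83664683, only 13228 bases from Ccl3 and pointing away from it. Xcl1 (ENSMUSG00000026573) lay apart, on the minus strand of chromosome 1 at 164931644 to 164935527. Ccr1 (ENSMUSG00000025804) lay on the minus strand of chromosome 9 at 123962124 to 123968692, with 100094 bases between it and Xcr1.

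The promoters of Ccl3, Xcl1 and Ccr1 are shown because RefSeq's promoter table (GRCm38.p6) held only these 3 of the 5 genes. Their levels followed 3 different patterns. Ccl3 was higher and Xcl1 lower in the CD8 T cells of the Nrp1L/L library, and Ccr1 was near background outside myeloid cells. Each line gives the 250 bases before the transcription start, 5′ to 3′ on the gene's own strand. Capitals mark matches, on either strand, to 1 of 6 motif strings. No 2 of the capital runs overlap.
Ccl3, chr11:83649379-83649628, minus strand: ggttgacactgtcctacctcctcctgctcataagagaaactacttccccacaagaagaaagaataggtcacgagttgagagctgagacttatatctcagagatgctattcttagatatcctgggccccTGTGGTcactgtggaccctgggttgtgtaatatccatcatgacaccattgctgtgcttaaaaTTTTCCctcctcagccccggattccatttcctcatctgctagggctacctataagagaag
Xcl1, chr1:164935523-164935772, minus strand: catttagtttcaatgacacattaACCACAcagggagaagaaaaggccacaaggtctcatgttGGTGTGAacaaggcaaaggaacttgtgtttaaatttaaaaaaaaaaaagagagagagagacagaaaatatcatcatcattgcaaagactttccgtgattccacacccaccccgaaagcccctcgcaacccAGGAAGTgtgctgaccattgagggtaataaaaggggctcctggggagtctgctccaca
Ccr1, chr9:123968693-123968942, minus strand: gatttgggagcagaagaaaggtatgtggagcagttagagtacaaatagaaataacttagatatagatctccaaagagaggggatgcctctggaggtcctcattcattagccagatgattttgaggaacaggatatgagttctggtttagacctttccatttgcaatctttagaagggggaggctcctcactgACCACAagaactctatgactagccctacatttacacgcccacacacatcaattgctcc

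The Ccl3 window held the RUNX string TGTGGT at -122 and the NFAT string GGAAAA, on the other strand, at -60. The Xcl1 window held TGTGGT on the other strand at -227, the T-box string GGTGTGA at -188 and the ETS or PU.1 string AGGAAGT at -58. The Ccr1 window held only TGTGGT, on the other strand, at -58. Over 32851 RefSeq promoter windows of 300 bases (250 before and 50 after the start), 16.8% held TGTGGT, 23.4% GGAAAA, 3.98% GGTGTGA and 9.35% AGGAAGT. The TATA string TATAAA and the AP-1 string TGANTCA, in 13.6% and 7.81% of windows, matched in none of the 3. A match describes letters and not a bound site.

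Cells were assigned to gates by the sum of their molecular identifiers (UMIs: each marks 1 captured transcript end whatever the transcript's length, so levels need no length correction). CD8 T cells had at least 2 UMIs of Cd3d, Cd3e and Cd3g together and at least 2 of Cd8a and Cd8b1. The gate called other CD3 had as much CD3 and less CD8. NK cells had at least 2 UMIs of Ncr1, Klrb1c and Klre1 and at most 1 of CD3. Macrophages had at least 10 UMIs of the complement genes C1qa, C1qb and C1qc, and monocytes at least 10 of Lyz2 with less C1q.
The gates held 236 CD8 T, 201 other CD3, 89 NK, 268 macrophage and 320 monocyte cells in the control library. They held 393, 358, 208, 86 and 134 in the Nrp1L/L library. Cells meeting a lymphoid and a myeloid gate, 21 and 17, were set apart, and 167 and 79 met no gate. Levels are given in CPM, UMIs in each 1000000 of all UMIs in the gate.

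After doublets were left out, 1302 and 1275 cells remained, with 12912194 and 8774789 UMIs, and 3 barcodes occurred in both libraries. Median depth per cell was 10846 and 6578 UMIs in CD8 T cells and 7753.5 and 8019.5 in monocytes. Of CD8 T cells, 48.3% of control and 27.7% of Nrp1L/L cells were cycling, defined as at least 2 UMIs of Mki67, Top2a, Birc5, Ube2c and Cdk1. These shares were not matched for depth, and the control CD8 T cells were deeper. Each gate was read with markers that did not set it. Apoe, abundant in macrophages, was at 37.3 and 16.6 CPM in CD8 T cells, against 1628 and 583 CPM over all kept cells. Eomes, Klrk1, Klra8, Gzma, Prf1 and Klra7, found in NK cells, summed to 5574 and 14698 CPM in NK cells against 521 to 1164 CPM in the T cell gates. The T cell genes Lck, Cd2 and Cd5 summed to 1140 and 1540 CPM in CD8 T cells and also to 772 and 1195 CPM in NK cells, against at most 38.1 CPM in the myeloid gates. Monocyte markers reached 2553 and 4146 CPM in CD8 T cells, which also express Ly6c2. Nrp1 could not be checked in the cells it is deleted from, since only 3 other CD3 cells of each library held a Foxp3 UMI.

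Differences are read against all genes with at least 20 UMIs over both libraries, of which a gene counts as higher or lower in the Nrp1L/L library from 1.5-fold. In CD8 T cells 16.7% of 8903 genes were higher and 13.6% lower by that measure. In other CD3 cells the shares were 17.9% and 16.0%, and in NK cells 23.3% and 12.8%. In macrophages 14.2% were higher and 24.4% lower, and in monocytes 16.7% and 18.1%. The median log2 ratio of all these genes lay between -0.12, in macrophages, and 0.09, in NK cells. So a 1.5-fold difference alone was common, and the rank of each chemokine among all genes is given beside its fold.

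Ccl5 was the most abundant of the 5 transcripts in every lymphoid gate and the one that differed most in total between the libraries. In CD8 T cells it was at 3580 CPM (95% interval 3513 to 3649) in control and 13745 CPM (13621 to 13869) in Nrp1L/L cells, 3.84-fold higher. Its rank among all genes of the gate went from 47 to 2, and only 70 of 8903 genes, itself included, had a ratio as high. NK cells held 4717 and 11669 CPM, 2.47-fold more in the Nrp1L/L library, and its rank there went from 33 to 4. Other CD3 cells held 3539 and 4765 CPM, a log2 ratio of 0.43 that stayed under 1.5-fold. These levels pool cells of unequal depth: with cells weighted equally Ccl5 was at 5774 and 17708 CPM in CD8 T cells and at 7267 and 13633 CPM in NK cells, so the control levels were over 1.5 times higher and the log2 ratio in CD8 T cells was 1.62.

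The order of the gates also differed between libraries. In the control, NK cells had the highest Ccl5 level, and CD8 T and other CD3 cells had overlapping intervals, 3513 to 3649 and 3450 to 3629 CPM. With cells weighted equally, however, CD8 T cells were above other CD3 cells there, at 5774 against 4668 CPM. In the Nrp1L/L library CD8 T cells stood above NK cells (11459 to 11883 CPM), and both stood far above other CD3 cells (4664 to 4868 CPM). A Ccl5 UMI was found in 88.1% of control and 95.7% of Nrp1L/L CD8 T cells. With each cell thinned to 2500 UMIs, which gives all cells the same depth and left out none, the shares were 76.3% and 91.3%. The median CD8 T cell held 20 and 76 Ccl5 UMIs, although the Nrp1L/L cells were shallower.

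**Figure D1:**
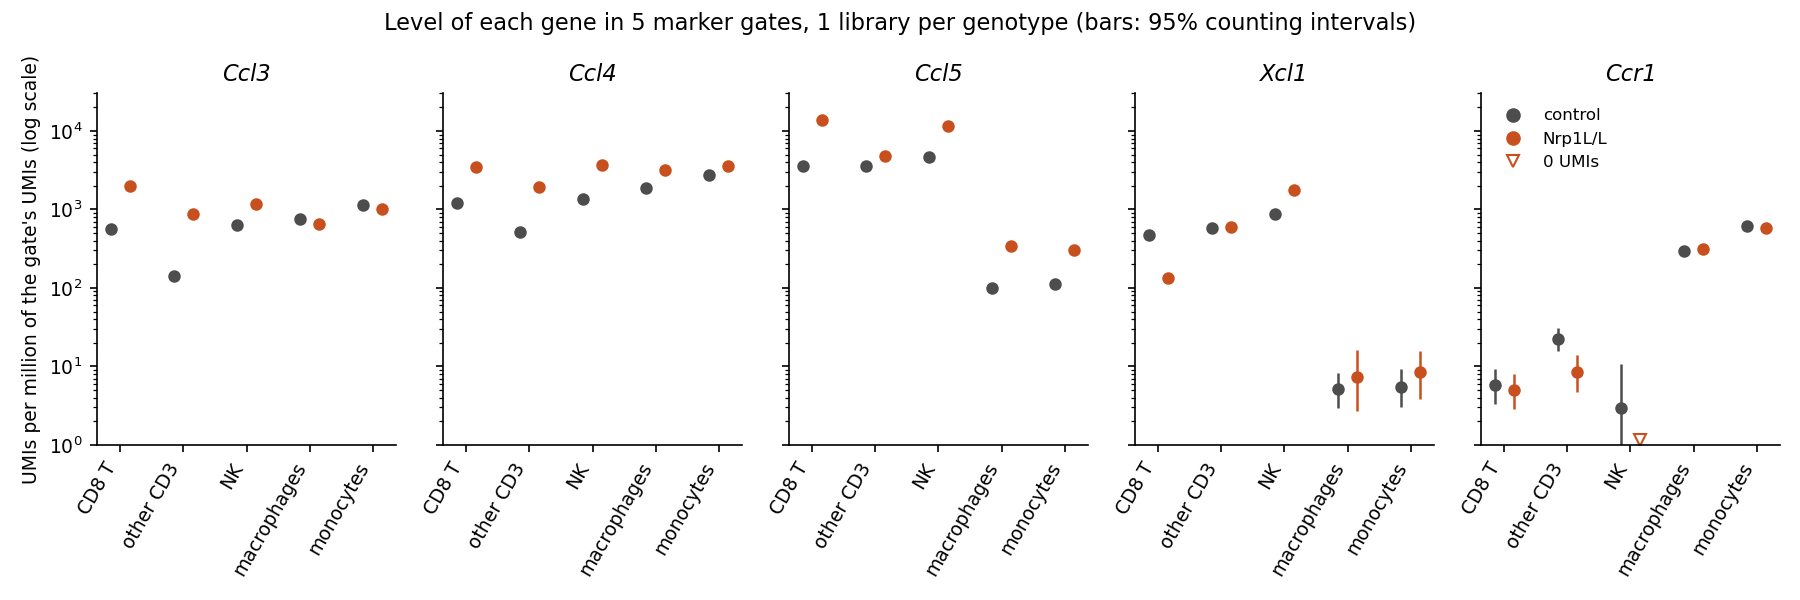
Level of each gene (CPM of the gate's UMIs, log scale) in 5 marker gates of the control (grey) and Nrp1L/L (orange) libraries, 1 library each, with bars for the 95% counting interval; an open triangle at the foot of the axis marks 0 UMIs. Ccl5 in CD8 T cells stood at 3580 and 13745 CPM, Xcl1 there at 477 and 135 CPM, and Ccr1 was above 100 CPM in macrophages and monocytes only.

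Cycling and non-cycling CD8 T cells differed in Ccl5 as well. Cycling cells held 2250 and 7177 CPM, and non-cycling ones 6766 and 19459 CPM. The level was therefore lower in the cycling cells of both libraries, and the control had the larger cycling share, not matched for depth. Among cycling cells alone the Nrp1L/L level was 3.19-fold higher, and among non-cycling cells alone 2.88-fold. Ccl5 in NK cells was likewise higher in the Nrp1L/L library in both subsets, at 1043 and 5583 CPM in the 13 and 17 cycling cells and at 6181 and 12685 CPM in non-cycling cells. Other CD3 cells were unlike these. Their 53 and 35 cycling cells held 1542 and 1171 CPM, a log2 ratio of -0.40 (-0.56 to -0.23). Their non-cycling cells held 5165 and 5636 CPM, a log2 ratio of 0.13. Of other CD3 cells, 26.4% and 9.78% were cycling, again not matched for depth.

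In macrophages and monocytes Ccl5 was low but higher in the Nrp1L/L library, as it was in CD8 T and NK cells. It was at 99.6 and 339 CPM in macrophages and at 113 and 302 CPM in monocytes, 3.40-fold and 2.68-fold higher. With gates set on cells thinned to 2500 UMIs, the monocyte log2 ratio was 0.69 in place of 1.42. In each library 6 macrophages held at least 50% of these UMIs, and the highest cell of each held 55 of 311 and 57 of 276. The macrophage level was 5.33% and 4.33% of the level over all kept cells. For Nkg7, a granule gene of cytotoxic lymphocytes, the same share was 2.14% and 1.86%. For the protease gene Gzmb it was 1.79% and 1.39%, and for the lymphocyte gene Ms4a4b 4.40% and 3.12%. In monocytes Ccl5 was at 6.04% and 3.86%, below Ms4a4b at 6.46% and 5.90%. Nkg7 at 1.67% and 2.10% and Gzmb at 1.71% and 1.95% were lower there. These genes were chosen after their values were seen. The part of free RNA and of lymphocytes caught with a myeloid cell in the myeloid Ccl5 was not tested. The Ccl5 to Ccl4 UMI ratio was 3.01 and 3.93 in CD8 T cells but 0.0530 and 0.105 in macrophages.

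Ccl3 and Ccl4, the neighbours on chromosome 11, were expressed by lymphoid and myeloid cells alike, and in the Nrp1L/L library the lymphoid levels were higher. In CD8 T cells Ccl3 was at 569 CPM (542 to 597) and 1962 CPM (1916 to 2010), 3.45-fold higher in the Nrp1L/L library. Ccl4 was at 1191 CPM (1152 to 1230) and 3502 CPM (3439 to 3565) there, 2.94-fold higher. Of 8903 genes, 103 had a ratio at least as high as that of Ccl3 and 176 at least as high as that of Ccl4.

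In NK cells Ccl4 was at 1365 and 3731 CPM, 2.73-fold higher in the Nrp1L/L library. Ccl3 was at 632 and 1174 CPM in the same cells, 1.86-fold higher, with 806 of 6026 genes at least as high. The Ccl3 difference in NK cells was smaller when deep cells counted less: with cells thinned to 2500 UMIs or weighted equally the log2 ratio went from 0.89 to 0.52 or 0.51, under 1.5-fold.
In other CD3 cells Ccl3 was at 143 and 864 CPM and Ccl4 at 519 and 1948 CPM. These log2 ratios, 2.59 and 1.91, rested on few cells, since 2 of the 358 Nrp1L/L cells held at least 50% of the UMIs of either gene. The gate also held 1 Nrp1L/L cell with basophil genes, and without it the ratios were 2.13 and 1.47. Without cycling cells they were 1.70 and 1.05, and with cells thinned 1.60 and 1.28.

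Among myeloid cells Ccl3 and Ccl4 went apart. Ccl3 in macrophages was at 753 CPM (722 to 784) and 652 CPM (597 to 709), and in monocytes at 1141 and 1000 CPM. Both log2 ratios, -0.21 and -0.19, were slightly below 0 and under 1.5-fold. With cells thinned they were -0.52 and -0.37, still under 1.5-fold. The median of all genes was -0.12 in macrophages and 0.00 in monocytes. Ccl4 was at 1880 and 3217 CPM in macrophages, 1.71-fold higher in the Nrp1L/L library, and at 2722 and 3598 CPM in monocytes, 1.32-fold higher. The macrophage log2 ratio, 0.77, was 0.46 and under 1.5-fold without the 5 cells with most Ccl4 in each library. The UMI ratio of Ccl4 to Ccl3 was 2.50 and 4.94 in macrophages and 2.09 and 1.78 in CD8 T cells.

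The gates therefore ordered differently in the libraries. For Ccl3 the control order was monocytes, macrophages, NK cells, CD8 T cells and other CD3 cells. NK and CD8 T intervals overlapped there (573 to 694 and 542 to 597 CPM). In the Nrp1L/L library CD8 T cells came first, followed by NK cells, monocytes, other CD3 cells and macrophages. Other CD3 cells came below macrophages, at 625 against 652 CPM, without the 1 basophil-gene cell, and at 483 against 672 CPM with cells weighted equally. In the control, equal weighting put NK cells (893 CPM) above macrophages (847 CPM). For Ccl4 monocytes led the control order, and in the Nrp1L/L library NK cells (3612 to 3852 CPM), monocytes (3486 to 3714) and CD8 T cells (3439 to 3565) formed a group of overlapping neighbours above macrophages (3095 to 3343). That place of macrophages turned with the weighting: with cells weighted equally they held 3753 CPM, above CD8 T cells at 3449 and monocytes at 3673. A Ccl3 UMI was found in 33.9% of control and 55.0% of Nrp1L/L CD8 T cells at 2500 UMIs per cell (53.8% and 65.9% unthinned), and a Ccl4 UMI in 52.5% and 75.8% (70.8% and 85.8% unthinned).

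**Figure D2:**
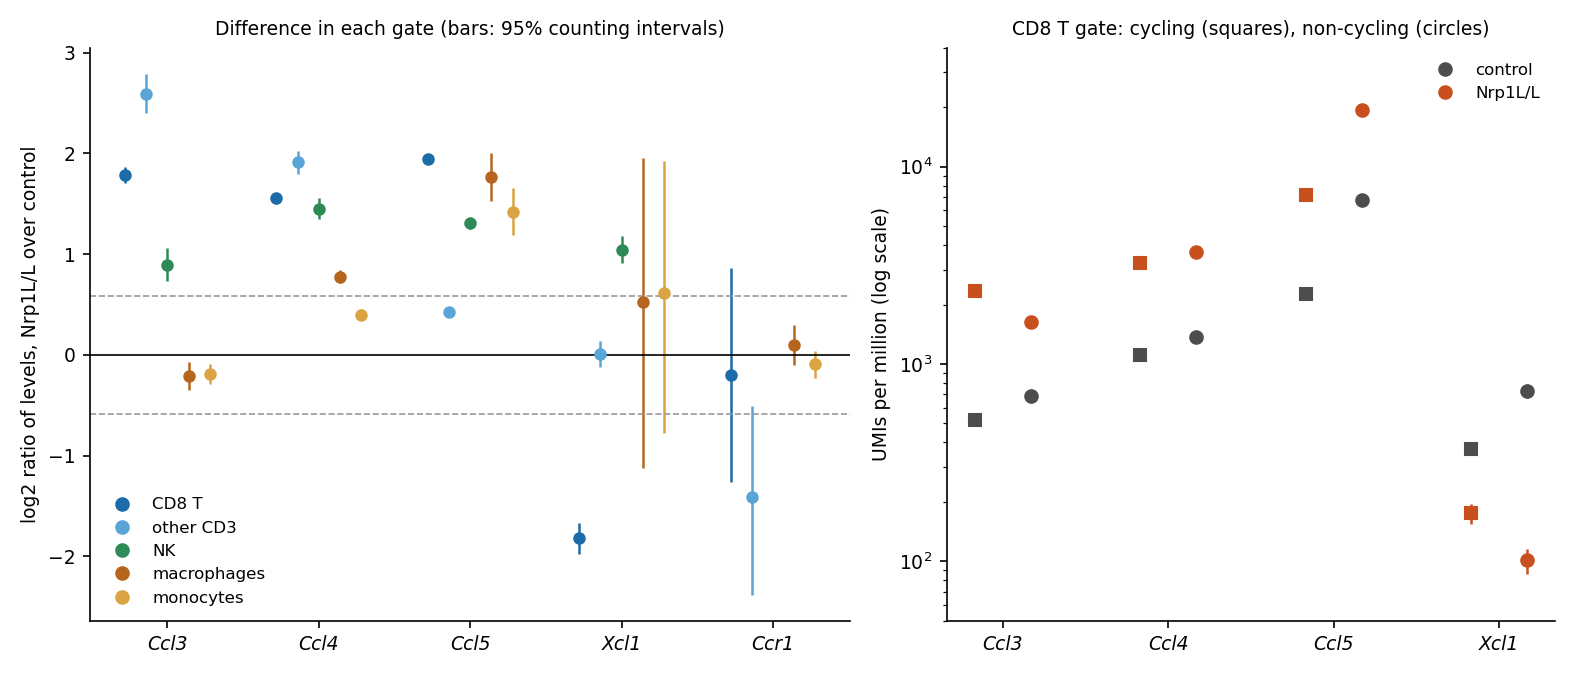
Left, log2 ratio of each gene's level, Nrp1L/L over control, by gate, with 95% counting intervals, a solid line at 0 and dashed lines at 1.5-fold (Ccr1 in NK cells, with 2 and 0 UMIs, has no point); right, levels (CPM, log scale) in cycling (squares) and non-cycling (circles) CD8 T cells of the control (grey) and Nrp1L/L (orange) libraries. Xcl1 was at -1.82 in CD8 T cells and 1.04 in NK cells, and Ccl5 was higher in non-cycling than in cycling cells of both libraries, at 6766 against 2250 CPM in the control.

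Xcl1 was the exception among the ligands: it was lower in the CD8 T cells of the Nrp1L/L library and not lower in NK cells. CD8 T cells held 477 CPM (453 to 503) and 135 CPM (123 to 148), 3.54-fold lower in the Nrp1L/L library, and 121 of 8903 genes had a ratio as low. NK cells held 865 CPM (797 to 938) and 1781 CPM (1699 to 1865), 2.06-fold higher. Other CD3 cells held 586 and 591 CPM, a log2 ratio of 0.01 that turned with the settings. It ranged from -0.56 without cycling cells to 0.26 with stricter gates, and was -0.28 without the highest cell of each library. A Xcl1 UMI was found in 40.3% and 29.1% of other CD3 cells, and in 28.9% and 24.9% after thinning. The order was NK, other CD3 and CD8 T cells in both libraries.

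The Xcl1 of CD8 T cells came from few cells. In the control, 4 of 236 cells held at least 50% of the 1422 UMIs, and the highest 10% of cells held 89.1%. In the Nrp1L/L library 6 of 393 cells held at least 50% of 462 UMIs. A Xcl1 UMI was found in 29.2% and 15.8% of CD8 T cells, and in 18.6% and 8.65% after thinning. Without the 5 highest cells of each library the log2 ratio was -1.44, and without cycling cells -2.86 (731 and 101 CPM), while cycling cells alone gave 372 and 175 CPM.
The NK difference was less firm. Xcl1 UMIs were found in 66.3% of control and 65.4% of Nrp1L/L NK cells, 57.3% and 57.7% after thinning. With NK cells weighted equally the levels were 1163 and 1500 CPM, a log2 ratio of 0.37, and with cells thinned it was 0.43, both under 1.5-fold. The 17 cycling NK cells of the Nrp1L/L library held 522 of its 1789 NK UMIs. In other CD3 cells of that library 1 cell held 336 of 1050 Xcl1 UMIs.
Macrophages and monocytes held 5.12 to 8.37 CPM of Xcl1, 1.93% to 2.20% of the level over all kept cells, beside 1.67% to 2.14% for Nkg7 in the same gates. That is read as background. With 6 to 16 UMIs a gate, the direction in monocytes turned with the settings.

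Cells with basophil genes, mostly outside all gates, were a further source of Ccl3 and Ccl4. They were taken by at least 5 UMIs of Mcpt8, Cpa3, Ms4a2 and Fcer1a, a rule added after values were seen, so the group is described only. It was met by 20 ungated cells of the Nrp1L/L library, 1.57% of its kept cells, and by 2 of the control. The basophil protease gene Mcpt8 had UMIs in all 20 and in neither of the 2, so the latter need not be the same cell type. Ccl3 in these 20 cells ranged from 89 to 445 UMIs per cell with a median of 205, in total 47071 CPM. Ccl4 ranged from 114 to 524 with a median of 364.5, in total 79759 CPM. They held 26.7% of all Ccl3 and 20.6% of all Ccl4 UMIs of their library. The 2 control cells held 100 and 123 Ccl3 UMIs and 2.46% of that library's.
In the control, ungated cells held Ccl3 at 747 CPM and Ccl4 at 2149 CPM. In the Nrp1L/L library the same remainder stood at 9012 and 16749 CPM, and without basophil-gene cells at 398 and 2489 CPM. Ccl5 was near background in the 20 cells, at 10 UMIs in all, and Ccr1 was at 617 CPM, beside 580 CPM in monocytes of that library.

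**Figure D3:**
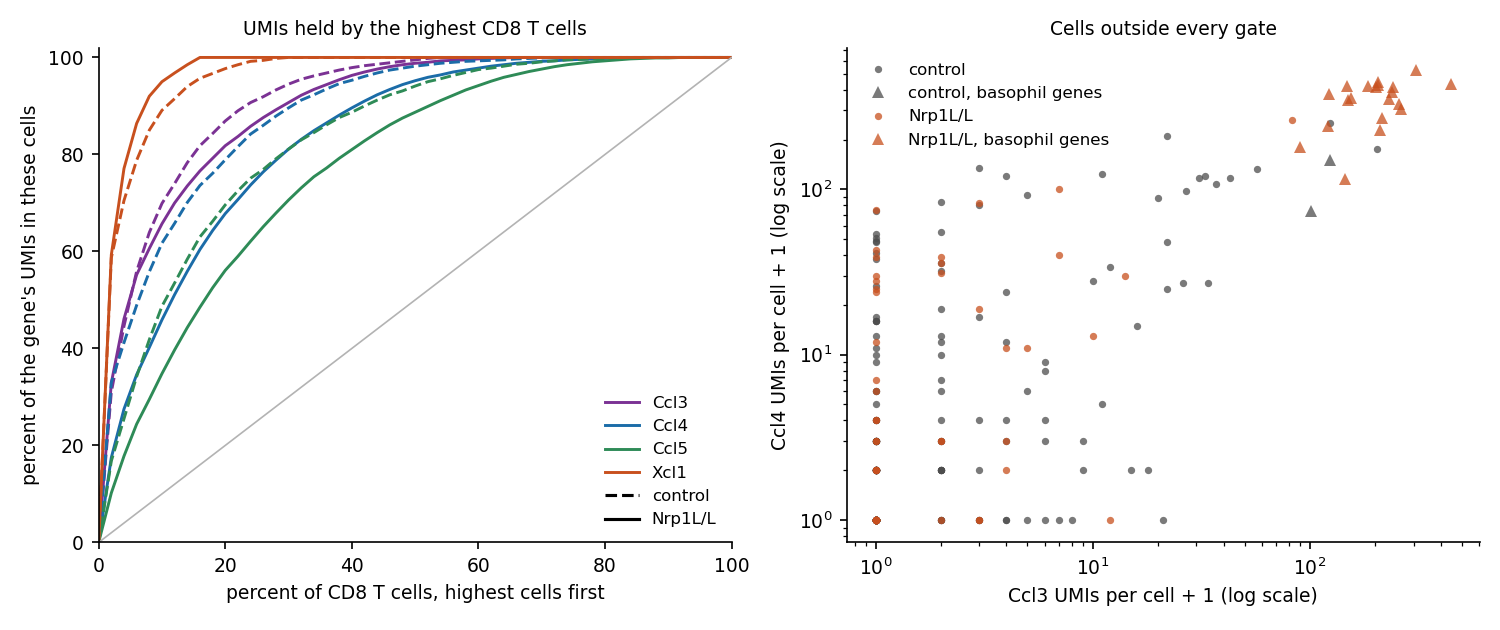
Left, share of the UMIs of Ccl3, Ccl4, Ccl5 and Xcl1 in CD8 T cells (percent) held by the highest cells (percent of cells, highest first) in the control (dashed) and Nrp1L/L (solid) library, with the grey diagonal for equal cells; right, Ccl3 against Ccl4 UMIs per ungated cell (each plus 1, log scales), with triangles for cells with basophil genes. The highest 10% held 89.1% of Xcl1 UMIs in control CD8 T cells and 34.8% of Ccl5 UMIs in Nrp1L/L ones, and the 20 Nrp1L/L triangles lie at 89 to 445 Ccl3 UMIs.

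Within CD8 T cells the 4 ligands were spread unequally. The highest 10% of cells held 69.9% of Ccl3, 61.7% of Ccl4 and 48.7% of Ccl5 UMIs in the control, and 65.7%, 45.9% and 34.8% in the Nrp1L/L library. More cells of the Nrp1L/L library had many transcripts: 52.2% of cells held at least 10 Ccl4 UMIs against 33.5% in the control, and 82.4% against 61.4% for Ccl5.
Ccl3 and Ccl4 went together from cell to cell. Over the 236 control and 393 Nrp1L/L CD8 T cells, Pearson's r of log2(UMIs per 10000 + 1) was 0.64 and 0.70, and across all gates of both libraries it lay between 0.48 and 0.70. After thinning, Ccl4 was found in 80.0% of control CD8 T cells with Ccl3 and in 38.5% of those without, and in 91.7% and 56.5% in the Nrp1L/L library. Ccl5 and Xcl1 ran against each other in CD8 T cells, with r of -0.32 and -0.30. After thinning, 14.4% of control cells with Ccl5 held Xcl1 against 32.1% of cells without it, and 7.24% against 23.5% in the Nrp1L/L library. In other CD3 cells the sign was the opposite, with r of 0.11 and 0.28. Cells of 1 library share its depth and free RNA, so these coefficients are descriptions without a test.

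On the receptor side, Ccr1 was a myeloid gene at close levels in both libraries. Macrophages held 291 CPM (273 to 311) and 313 CPM (276 to 354), and monocytes 619 CPM (589 to 650) and 580 CPM (536 to 628). The log2 ratios were 0.10 (-0.10 to 0.30) and -0.09 (-0.23 to 0.04), both intervals within 1.5-fold. A Ccr1 UMI was found in 42.5% and 34.9% of macrophages and in 55.3% and 48.5% of monocytes after thinning (68.7% and 55.8%, and 75.6% and 67.9%, unthinned). CD8 T cells held 5.71 and 4.97 CPM, 2.57% and 4.10% of the level over all cells, beside 2.29% and 2.85% for the macrophage gene Apoe and 2.68% and 7.17% for Cd68. That is read as background too, and 2 and 0 UMIs were counted in NK cells.
Other CD3 cells held 38 and 15 Ccr1 UMIs, 22.4 and 8.44 CPM, 2.65-fold lower with an interval of -2.38 to -0.51 on the log2 scale. One control cell held 10 of the 38, and the log2 ratio was -2.89 without the 5 highest cells and -2.99 without cycling cells.

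Ccrl2, an atypical receptor, was at 336 and 256 CPM in monocytes and at 214 and 247 CPM in macrophages. It was at 72.5 and 125 CPM in other CD3 cells and at 31.1 and 56.7 CPM in NK cells, log2 ratios of 0.79 and 0.87. Xcr1, the receptor of XCL1, had 0 UMIs in CD8 T cells of both libraries. Among cells with at least 2 UMIs of the cross-presenting dendritic cell genes Clec9a, Wdfy4 and Cadm1 and at most 1 of CD3, Xcr1 was at 50.8 CPM (64 UMIs in 86 cells) in the control. In the 26 such cells of the Nrp1L/L library it had 1 UMI. Of these cells 32 and 6 were ungated, and most of the others fell in the macrophage and monocyte gates. Outside this group, 1 ungated Nrp1L/L cell held 6 Xcr1 UMIs, and set-apart cells of that library held 2. In the control, 43 of the 54 Xcr1 UMIs of ungated cells lay in the group. Ccr3, carried by basophils and eosinophils, had 11 UMIs in the 20 Nrp1L/L basophil-gene cells and at most 6 UMIs in any gate of either library. Ackr2 and Ccr1l1 had 0 UMIs in every gate.

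**Figure D4:**
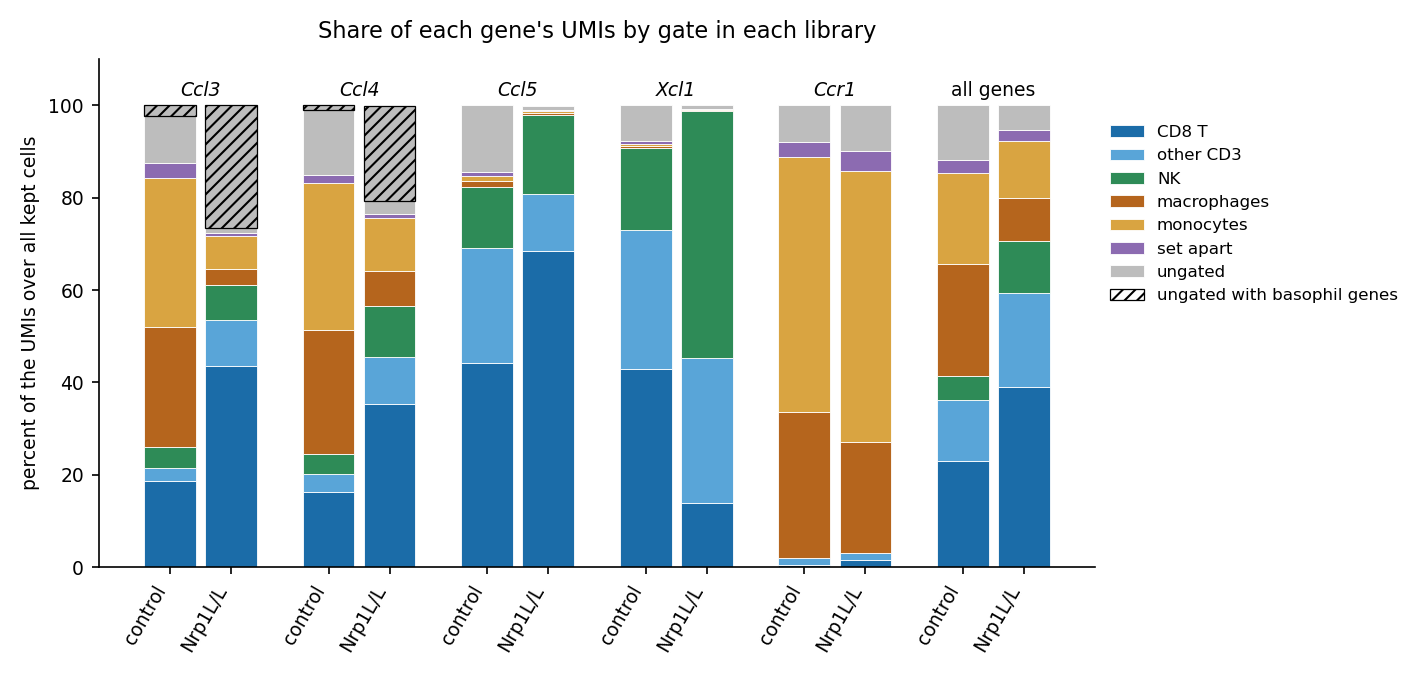
Percent of each gene's UMIs over all kept cells that lay in each gate, in the control and Nrp1L/L libraries, beside the same for all genes; hatching marks ungated cells with basophil genes, counted for Ccl3 and Ccl4. CD8 T cells held 44.2% and 68.5% of Ccl5, NK cells 17.7% and 53.5% of Xcl1, and monocytes 55.1% and 58.8% of Ccr1.

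Over whole libraries, levels also differed with the makeup of the cells. Ccl5 over all kept cells was at 1869 and 7823 CPM, 4.19-fold higher in the Nrp1L/L library. With the Nrp1L/L levels of each gate weighted by the control's UMI shares it would be 2.53-fold higher. Ccl3 was 2.51-fold higher as measured and 2.94-fold at control shares, and Ccl4 2.29-fold and 2.82-fold. These folds rested in part on the basophil-gene cells: without them Ccl3 was 1.79-fold higher as measured and 1.44-fold at control shares, and Ccl4 1.77-fold and 1.78-fold. Xcl1 was 1.49-fold higher as measured and 0.830-fold at control shares. Ccr1 was 0.545-fold as measured and 1.01-fold at control shares, so its lower level over all cells went with fewer macrophages and monocytes.
The main source of Xcl1 differed: CD8 T cells held 43.0% and 13.8% of its UMIs and NK cells 17.7% and 53.5%. Of all UMIs, CD8 T cells held 23.1% and 39.0% and NK cells 5.24% and 11.4%. For Ccl3 and Ccl4, monocytes and macrophages together were the leading source in the control, with 32.2% and 26.0% of Ccl3. These gates held 19.8% and 24.2% of all control UMIs. In the Nrp1L/L library CD8 T cells led with 43.6% of Ccl3 and 35.3% of Ccl4. Both are near the 39.0% of all UMIs that CD8 T cells held there.

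Other genes of the pathway were read from lists chosen with earlier results of these data known. Of 14 genes switched on after antigen receptor signals and measured in CD8 T cells, 6 were at least 1.5-fold higher and 2 lower in the Nrp1L/L library, with a median log2 ratio of 0.46 against 0.00 for all genes, of which 16.7% were higher and 13.6% lower. The higher ones were the cytokines Ifng (256 and 623 CPM) and Tnf (9.07 and 21.9 CPM), the nuclear receptors Nr4a2 (104 and 165 CPM) and Nr4a3 (8.73 and 17.2 CPM), the transcription factor Irf4 (11.4 and 21.0 CPM) and Tnfsf14 (10 and 19 UMIs, an interval of -0.45 to 1.99 on the log2 scale).
Lower were Csf2, which encodes the growth factor GM-CSF, with 58 and 3 UMIs and a log2 ratio of -4.47 (-6.79 to -2.86), and Egr2 with 22 and 9 UMIs. Csf2 thus went with Xcl1 in CD8 T cells and not with the CC ligands. In NK cells Csf2 had 37 and 0 UMIs, a log2 ratio no higher than -4.20 when 3 counts over the gate stand for the 0, although Xcl1 was not lower there. Of 11 measured genes of the list, 5 were higher and 2 lower in NK cells, where 23.3% of all genes were higher and 12.8% lower.

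Of 10 transcriptional regulators and granule genes, 2 were higher in CD8 T cells and 0 lower, with a median of 0.27. The share higher is near the 16.7% of all genes. These were Tbx21, the factor T-bet of cytotoxic and helper programmes (33.6 and 71.3 CPM), and Nfatc1 (28.9 and 52.9 CPM), while Eomes, a T-box factor like T-bet, had the lowest ratio, -0.17. Klf13, a factor known to act on Ccl5 in T cells, was at 62.5 and 86.5 CPM in CD8 T cells, a log2 ratio of 0.47, and at 74.0 and 140 CPM in NK cells. Of 14 measured genes of chemokine receptor signalling, 1 was higher in CD8 T cells, Arrb1 with 8 and 24 UMIs, and 0 lower, beside 16.7% and 13.6% of all genes. Adrbk1 had the lowest ratio, -0.18. Neither Ccr1 nor Ccrl2 differed by 1.5-fold in CD8 T cells.
Of 4 other measured CC ligands of the list, Ccl6 was higher in CD8 T cells (29.5 and 99.9 CPM) and Ccl7 lower (48.3 and 24.8 CPM). The Ccl6 difference came with 1 cell: without the basophil-gene cells of the gate the levels were 29.9 and 22.0 CPM. Macrophages held far more of both, with Ccl6 at 4274 and 3256 CPM and Ccl7 at 4946 and 4654 CPM. The part of free RNA in the CD8 T values was not tested.

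The genes most like each member were found over the 10 gate and library levels, among 6574 genes with at least 200 UMIs and no part in a gate. They are a description over points that share libraries and depth. Ccl3 and Ccl4 picked each other (r = 0.89), with the deubiquitinase gene Otub1 and the sensor gene Nod1 in the top 3 of both. Ccl5 went with Nkg7, Lax1 and Gzmb and Xcl1 with Ywhaq, Samd3 and Fam172a, all at r of 0.98 or 0.99. Ccr1 went with the interleukin 1 antagonist gene Il1rn, Gsn and Ifitm2, at 0.99. By Spearman's rho only 1 of the 3 genes was shared for each CC ligand and 0 for Xcl1 and Ccr1.
Across single CD8 T cells, among 4600 genes, Ccl3 was most like Ccl4 (0.64 and 0.70 in the control and Nrp1L/L libraries), Ifng (0.46 and 0.47) and Lgals1 (0.37 and 0.39). Ccl4 followed with S100a4 and Cxcr6, a homing receptor of tissue T cells, after Ccl3. Ccl5 was most like Nkg7 (0.50 and 0.55), S100a6 and Tmsb4x, and Xcl1 like the receptor gene Cd160 (0.29 and 0.35) and Nop56. Genes were ranked by the lower r of both libraries. For Ccr1, near background there, the 3 genes ranked first had no r above 0.21.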

How the data were processed

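CD45+ cells of 2 B16 tumour libraries were analysed, 1 for each genotype. The deposited matrices hold whole-number UMI counts per gene and barcode; per the submitters' processing notes, the authors used Cell Ranger 1.3 and mm10. Scrublet (scanpy 1.11.5, expected rate 2%) was run on each library; its own threshold left out 8 control barcodes, and because it called only 0.231% of the other library the top 2% of scores (26) were left out there. Cells meeting a lymphoid and a myeloid gate were set apart. Counts were summed per gate and scaled to CPM, with exact Poisson intervals for levels, exact conditional binomial intervals for ratios and a floor of 3 counts for 0. No p-value is given. The script for ratios was tested on simulated data. The members, gates and gene lists were chosen with earlier results of these data known. Named genes were the members, the 3 genes most like each, and list genes with at least 20 UMIs that were highest, lowest or past 1.5-fold in CD8 T cells; list genes named in other gates, and Klf13, were chosen after their values were seen. Alternatives covered doublets, gates, depth, weighting, scaling, cycling cells and, added after the data were seen, basophil-gene cells and the highest cells. Python 3.11.15, numpy 2.4.6, scipy 1.17.1 and pandas 2.3.3 were used. Some genes of the lists, and one of the genes most like Xcl1, are not reported here.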

Additional observations from a re-analysis of the deposited data

Results flagged for a closer look

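Ccl3 was higher in the Nrp1L/L library in lymphoid gates and not in myeloid gates. Its log2 ratio, Nrp1L/L over control, was 1.79 in CD8 T cells, 2.59 in other CD3 cells and 0.89 in NK cells. In macrophages it was -0.21 and in monocytes -0.19. Centred on the median of all genes, -0.12 in macrophages, the macrophage ratio was -0.09 (-0.23 to 0.05), an interval that holds 0. The monocyte ratio stayed at -0.19 after centring. Over all alternatives the macrophage ratio lay between -0.52 and -0.09. It was -0.52 (-0.80 to -0.25) with cells thinned and -0.45 (-0.59 to -0.31) without cycling cells. Xcl1 differed in direction between the 2 cytotoxic gates, with 1.04 in NK cells and -1.82 in CD8 T cells. With 1 library for each genotype, these differences between gates were not tested. The Xcl1 ratio of NK cells was 0.37 with cells weighted equally and 0.43 with cells thinned to the same depth, both under 1.5-fold.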

How the results depend on the processing

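Of 24 log2 ratios, 15 were past 1.5-fold. Of all genes, 14.2% to 23.3% were higher and 12.8% to 24.4% lower by that measure, depending on the gate. Among the 15 was Xcl1 in monocytes, 0.61 on 14 and 9 UMIs with an interval of -0.78 to 1.92. All 15 stayed past 1.5-fold with every barcode kept, with stricter gates and after centring on the median gene. They also did without basophil-gene cells, without cycling cells and without the highest cell. Fewer did with double-gated cells kept (14), cells thinned (12) or thinned before gating (13), cells weighted equally (12) and without the 5 highest cells (13).

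In CD8 T cells no alternative turned a ligand's direction or brought it under 1.5-fold, but several moved a ratio past its counting interval. Ccl3 (1.79) was 1.65 thinned before gating, 1.24 without cycling cells and 1.88 without the 5 highest cells. Ccl4 (1.56) was 1.74 with stricter gates, 1.62 thinned, 1.44 without cycling cells, 1.69 without the highest cell and 1.95 without the 5 highest. Ccl5 (1.94) was 1.99 with double-gated cells kept, 2.07 with stricter gates, 1.63 thinned, 1.62 thinned before gating or weighted equally, 1.52 without cycling cells, 1.99 without the highest cell and 2.09 without the 5 highest. Xcl1 (-1.82) was -1.48 thinned, -1.57 thinned before gating, -1.56 weighted equally, -2.86 without cycling cells and -1.44 without the 5 highest. In NK cells Xcl1 (1.04) was 0.43 thinned, 0.27 thinned before gating, 0.37 weighted equally and 0.59 without cycling cells. The cause was not tested. Xcl1 in monocytes, on 14 and 9 UMIs, turned to -0.64 with double-gated cells kept, -1.55 thinned and -1.41 thinned before gating, and has no usable direction. With cells weighted equally, 21 of 48 levels stayed within their counting interval. The shares of all genes past 1.5-fold stayed within 1.5 times under other UMI minimums in 20 of 20 cases. No paired analysis was possible because each genotype has 1 library.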

Other observations

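Ccl5 was also high in ungated cells of the control with at least 10 UMIs of Ccr7, the receptor that guides migratory dendritic cells and naive lymphocytes to lymph nodes. These cells were chosen after their values were seen. There were 30 in the control, with 3346 Ccl5 UMIs, a median of 53 and a highest of 610 per cell, 13608 CPM in all. In the Nrp1L/L library 6 such cells held 97 UMIs, of which 76 were in 1 cell, 1814 CPM in all. The 30 control cells also held 247 Xcl1 UMIs, and 231 of those were in 1 cell.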
